A study of Homo sapiens with 2 samples.

Results

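Respiratory complex I was followed through the genes whose symbol starts with NDUF. Of 17709 probe sets with a single gene symbol, 41 carried such a symbol, 1 probe set for each gene. They were 32 subunits, the 8 assembly factors named NDUFAF1 to NDUFAF8, and NDUFV1-DT, a non-coding RNA gene that lies head to head with NDUFV1. The cells were DLD-1, an established human colorectal cancer line. Cells received either AllStars negative control siRNA (siControl) or a single siRNA, Hs_YY1_1, against the transcription factor YY1 (siYY1), each at 5 nmol/L with the lipid reagent Lipofectamine RNAiMAX, and RNA was taken on day 3. With a single siRNA, knockdown of YY1 and other effects of that siRNA cannot be told apart. Each group was 1 array, so no value has a replicate error and no difference has a p-value. The comparison asks which genes change in level when YY1 is knocked down, and all differences below are siYY1 minus siControl on the log2 scale, between these arrays.

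Complex I takes electrons from NADH and hands them to ubiquinone while it pumps protons across the inner mitochondrial membrane. It is L-shaped. The matrix arm holds the N module, where NADH is oxidised at a flavin, and the Q module, where iron-sulfur clusters pass the electrons to ubiquinone. The membrane arm holds the proton pumps, whose cores are encoded by mitochondrial DNA, and a shell of small nuclear-encoded accessory subunits, which is built in a proximal part (ND1 and ND2 modules) and a distal part (ND4 and ND5 modules). Assembly factors join the parts and are absent from the finished enzyme. YY1 is a zinc finger protein that binds many promoters close to the start of transcription, and it is known to act with the coactivator PGC-1alpha on mitochondrial genes in muscle.

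Of 37 nuclear-encoded subunits listed, 32 had a named probe set. The other subunits were not analysed here, and 4 of 7 core subunits were measured. All 8 NDUFAF factors were measured. NDUFA4 and NDUFA4L2, whose products lie outside complex I, had no named probe set either. All 40 protein-coding members had a mean log2 value at or above 7.21, the median over all named genes, and 8745 protein-coding genes that met the same minimum (called bright genes here) served as the background. NDUFV1-DT was below it. Levels of different probe sets cannot be set against each other, so only the difference within a probe set is compared. No probe set carried the name YY1, and the extent of the knockdown was not analysed here. The colon epithelial markers EPCAM, KRT8 and KRT18 were among the bright genes, whereas LGALS4 was dim on both arrays. Of 11 measured markers of fibroblasts, leukocytes and endothelium, COL1A2 and CD14 reached the brightness minimum. The other 9 did not, among them PTPRC, DCN and PECAM1. The fibroblast markers ran from 4.12 to 8.62 on the siControl array and from 4.17 to 8.84 in siYY1, with COL1A1 the most different at 4.60 and 5.70, and their part in the results was not tested.

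The letters of the YY1 binding motif were common in complex I promoters, and they lay just behind the start of transcription. The windows searched ran from 250 bases before to 50 bases after each RefSeq start (GRCh38.p14), on both strands. They were found for 36 of the 40 coding members. NDUFAF6, NDUFB5, NDUFB9 and NDUFS5 had none. Searched were 2 overlapping forms, ANATGGCGG and AAGATGGCG. At least 1 form was present in 10 of 36 members (27.8%), against 9.4% of 7392 bright genes and 3.96% of all 27305 genes with a window. For genes with a single window the shares were 25.8% of 31 members and 8.94% of bright genes. The 28 genes of complexes II to V with a window held 5 (17.9%). Shares over so few genes are descriptions, and a match is not a bound site.

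The sites are shown here because YY1 is the protein that the siRNA was directed against. Each has up to 10 bases on either side, is written along the gene, and carries the motif in capitals, on build GRCh38.p14:
NDUFA6, chr22:42090729-42090757 (- strand): atgctttggcAAGATGGCGgggagcggcg
NDUFA7, chr19:8321343-8321371 (- strand): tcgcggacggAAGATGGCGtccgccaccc
NDUFS4, chr5:53560650-53560678 (+ strand): tgcctgcagcAAGATGGCGgcggtgtcaa
NDUFS6, chr5:1801406-1801434 (+ strand): cagcggcgcaAAATGGCGGcggcgatgac
NDUFV2, chr18:9102729-9102748 (+ strand): acagtgtggcCCGCCATGTt
NDUFA9, chr12:4649114-4649142 (+ strand): attgtgggaaAAGATGGCGgctgccgcac
NDUFS3, chr11:47579080-47579108 (+ strand): catctgagtaACATGGCGGcggcggcggt
NDUFS7, chr19:1383914-1383942 (+ strand): ggccgaggccAAGATGGCGgtgctgtcag
NDUFB8, chr10:100529836-100529864 (- strand): gaagaaggtgAAGATGGCGgtggccaggg
NDUFAF8, chr17:81239317-81239345 (+ strand): ggacggacctAAGATGGCGgcctccaggg

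In all 10 members the letters lay after the start, between base 10 in NDUFS6 and base 49 in NDUFV2. In 9 of them the motif pointed along the gene. NDUFV2 was the exception, with the letters on the opposite strand, which is why its capitals read as the reverse complement. Over all 1082 genes with a match, the first match lay after the start and along the gene in 478. Both forms contain ATG, and whether this is the start codon of these genes was not analysed here.

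The sites were unevenly spread over the enzyme. Of 13 matrix arm subunits with a window 8 held the letters: NDUFA6, NDUFA7, NDUFS4, NDUFS6 and NDUFV2 of the N module and NDUFA9, NDUFS3 and NDUFS7 of the Q module. Of 15 membrane arm subunits with a window only NDUFB8 did, and of 7 NDUFAF factors only NDUFAF8, which helps to hold NDUFAF5 in place. The split between the arms was noticed in the counts, so it is a description of these windows.

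**Figure D1:**
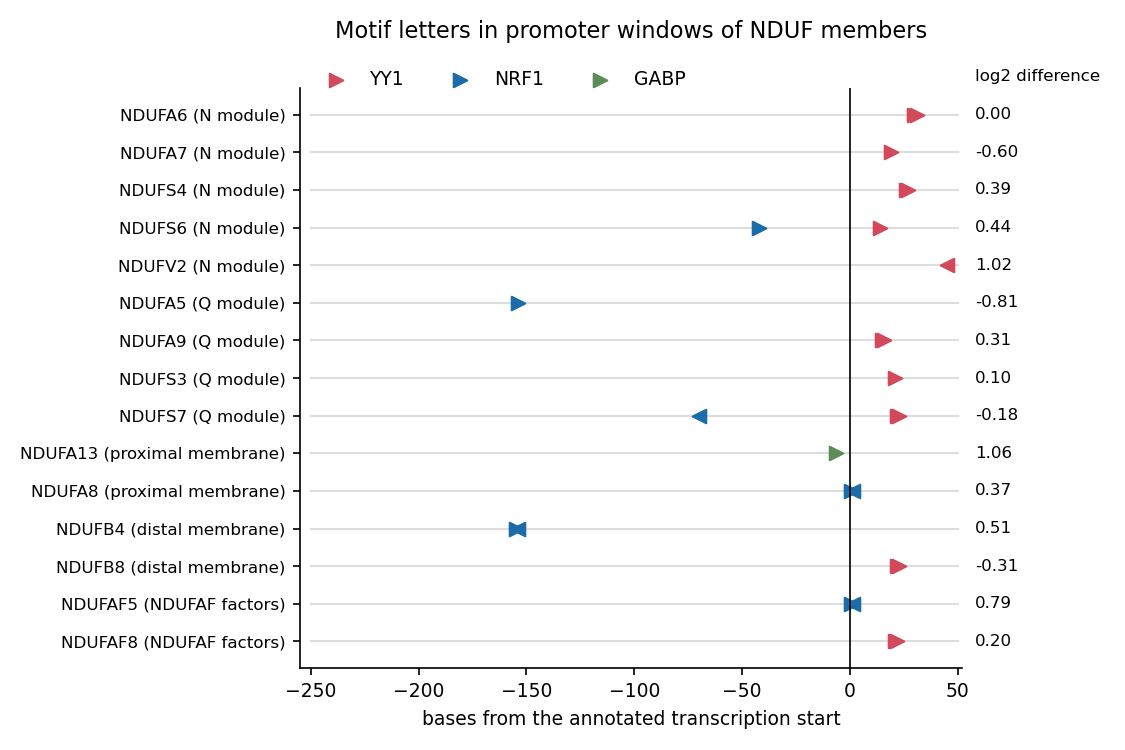
Positions of YY1, NRF1 and GABP letters in the promoter windows of the 15 NDUF members that held any. The x axis is the distance in bases from the annotated start of transcription, arrows point along the gene (right) or against it (left), and the number beside each row is its log2 difference, siYY1 minus siControl. The YY1 letters sit after the start in all 10 members that hold them, and their differences run from -0.60 to 1.02.

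Presence of the letters did not separate the members by their difference on the arrays. The 10 members with them had a median difference of 0.15 (range -0.60 to 1.02, 7 above 0), and the 26 with a window but without them a median of 0.16 (range -1.16 to 1.06, 14 above 0). Of the 5 members with a window that were past 2-fold, 1 held the letters. For all bright genes with a window the medians were -0.0098 with the letters and -0.014 without.

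Other activators of nuclear respiratory genes were searched in the same way. The NRF1 letters GCGCATGCG were in 6 of 36 members (16.7%): NDUFA5, NDUFA8, NDUFAF5, NDUFB4, NDUFS6 and NDUFS7. The shares were 4.72% of bright genes and 21.4% (6 of 28) of the genes of complexes II to V. The 6 members had a median difference of 0.40, with 4 above 0 and none past 2-fold. Members with a window but without the NRF1 letters had a median of 0.10. For bright genes with a window the medians were -0.097 with the NRF1 letters and -0.0089 without. The GABP letters CCGGAAGT were in 1 member, NDUFA13 (2.78%), against 11.3% of bright genes and 9 of 28 genes of complexes II to V. The ESRRA letters TCAAGGTCA were in none of the members and in 0.257% of bright genes. CCAAT was in 11 members (30.6%) and in 43.9% of bright genes. The NRF1 sites are shown with the single GABP site, which lies in a member past 2-fold (capitals mark the motif, GRCh38.p14):
NDUFS6, chr5:1801351-1801379 (+ strand): cagaagccgtGCGCATGCGttagcgctaa
NDUFA5, chr7:123557958-123557986 (- strand): tatgcccatcGCGCATGCGtcaatttttc
NDUFS7, chr19:1383823-1383851 (+ strand): ttccggtttcCGCATGCGCtccgagccgc
NDUFA8, chr9:122159765-122159793 (- strand): gttgccggatGCGCATGCGcaggcgccgt
NDUFB4, chr3:120596167-120596195 (+ strand): agagcacttcGCGCATGCGcatatcaccg
NDUFAF5, chr20:13785014-13785042 (+ strand): agccgcgctgGCGCATGCGcacaaaaagc
NDUFA13, chr19:19516205-19516232 (+ strand): ccgcccgggaCCGGAAGTgtgggatact

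The NRF1 letters of NDUFA8 and NDUFAF5 span the start itself, while those of NDUFA5 and NDUFB4 end at bases -150 and -151. In NDUFA8, NDUFAF5 and NDUFB4 the letters also match on the opposite strand, shifted by 1 base. NDUFS7 matches on the opposite strand only, so its capitals read as the reverse complement. NDUFS6 and NDUFS7 hold both NRF1 and YY1 letters.

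Across the array comparison the 40 coding members differed by modest amounts. In all, 24 were above 0 and 16 below, with a median of 0.21 and an interquartile range from -0.27 to 0.46. The bright genes had a median of -0.0054 and a wider interquartile range, from -0.48 to 0.44, with 49.8% above 0. The median over all 17245 named protein-coding genes was -0.0048. At least 2-fold higher in siYY1 were 4 coding members, NDUFAF6, NDUFA13, NDUFC1 and NDUFV2, against a background of 7.64% of bright genes and 4.62% of all named protein-coding genes. At least 2-fold lower were NDUFAF1 and NDUFV1, against backgrounds of 8.63% and 5.67%. The 6 of 40 past 2-fold either way lie close to the 16.3% of bright genes (10.3% of all named protein-coding genes), so their number is no result about complex I. At 1.5-fold, 9 of the 41 members were higher and 5 lower, against 19% and 20.9% of bright genes. The 9 include the dim, non-coding NDUFV1-DT. None reached 3-fold, against 1.82% higher and 2.1% lower among bright genes.

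**Figure D2:**
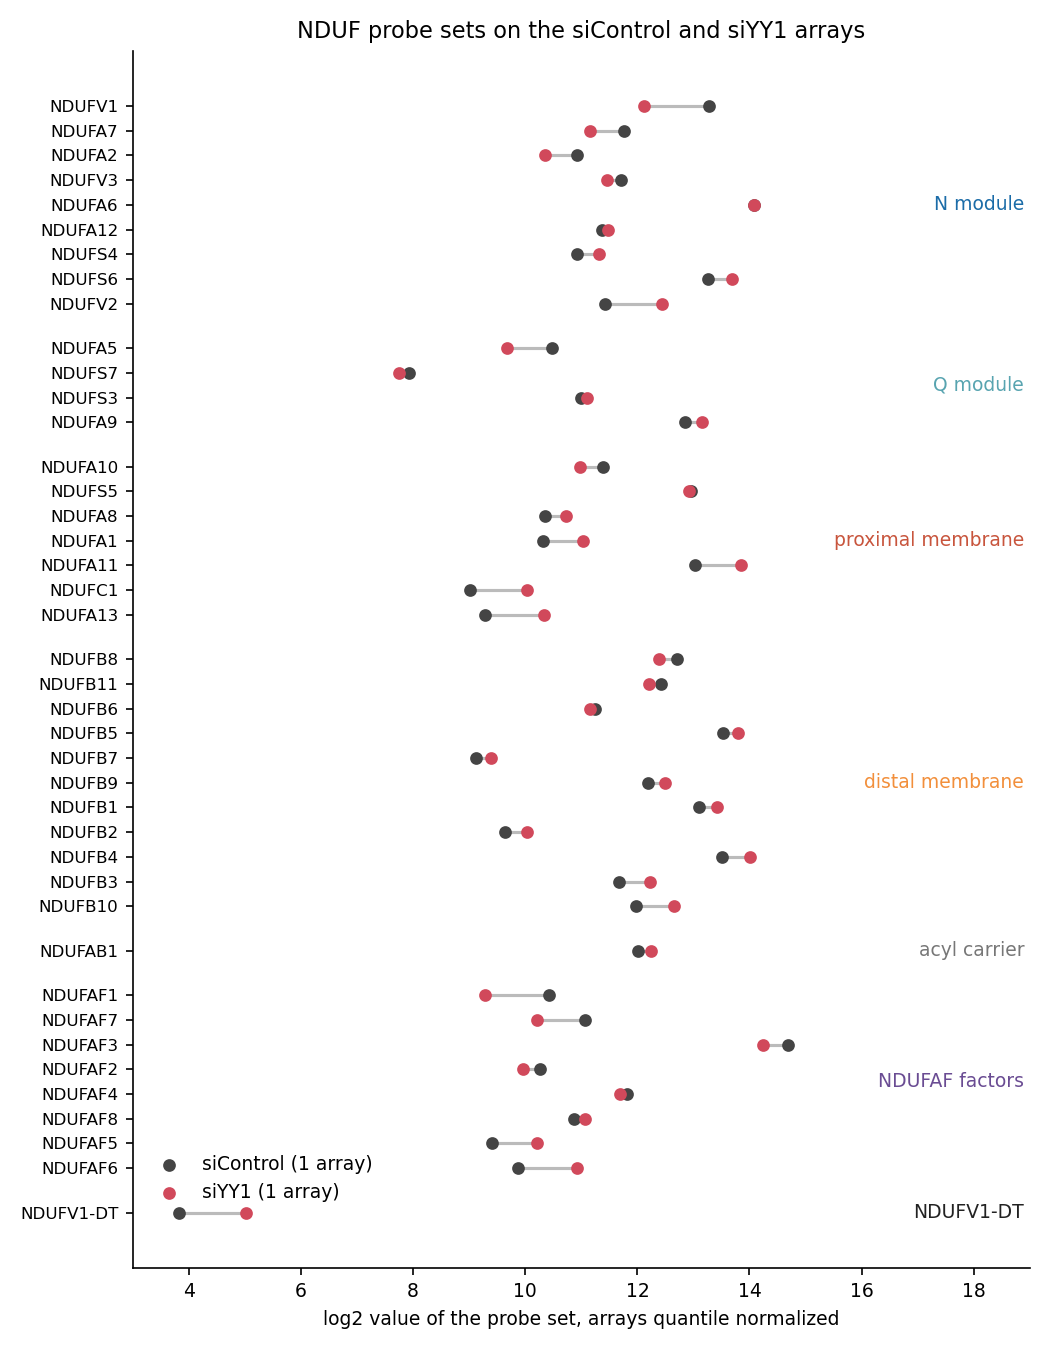
Level of every NDUF probe set on the siControl array (dark) and the siYY1 array (red), in log2 units after quantile normalization, grouped by module. Each point is 1 array and has no error bar, and levels of different probe sets are not comparable. Among the coding members the widest gaps are near 1 log2 unit. They run to the left for NDUFV1 and NDUFAF1 and to the right for NDUFV2, NDUFC1, NDUFA13 and NDUFAF6. The dim NDUFV1-DT sits far to the left of the plot and has a gap of 1.19 to the right.

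The N module held the lowest subunit of the enzyme and 1 of the 3 that were 2-fold higher. NDUFV1, the subunit that binds NADH and the flavin, was at 13.27 on the siControl array and 12.12 on the siYY1 array, a difference of -1.15 (2.22-fold lower). NDUFV2, its iron-sulfur partner at the tip of the arm, was at 11.42 and 12.44, a difference of 1.02 (2.03-fold higher). These subunits touch in the enzyme, and their probe sets differed in opposite directions. NDUFV3, a small accessory partner of both, was near NDUFV1 in sign only, at -0.26.

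The other N module subunits lay within 2-fold. NDUFA7 was at 11.76 and 11.16, a difference of -0.60, and NDUFA2, with a thioredoxin-like fold, at 10.92 and 10.35, a difference of -0.57. NDUFA6, a member of the LYR family that anchors an acyl carrier protein, was nearly equal on the arrays, at 14.08 and 14.09. NDUFA12 differed by 0.099, and both it and NDUFA6 were below 0 in the values as deposited. The accessory subunits NDUFS4 and NDUFS6, which are needed to complete the N module, differed by 0.39 and 0.44. Over the 9 members the median was 0.0023, with 5 above 0 and 4 below.

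NDUFV2 is the only member past 2-fold whose window held the YY1 letters, so the 250 bases before its start are shown as well. They lie at chr18:9102449-9102698 on the + strand (GRCh38.p14), are 76.8% G or C, and hold none of the 6 motif forms searched:
NDUFV2, before the start: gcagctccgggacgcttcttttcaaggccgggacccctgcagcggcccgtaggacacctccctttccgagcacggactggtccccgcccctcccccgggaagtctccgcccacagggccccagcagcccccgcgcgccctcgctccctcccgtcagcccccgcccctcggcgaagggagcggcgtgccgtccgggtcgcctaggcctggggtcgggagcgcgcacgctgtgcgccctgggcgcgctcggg

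The Q module, measured through 4 of 6 listed subunits, was centred near 0, with a median of -0.039. NDUFA5, an accessory subunit, was lowest at 10.48 on the siControl array and 9.67 on the siYY1 array, a difference of -0.81. NDUFS7, which carries the last iron-sulfur cluster before ubiquinone, was at 7.92 and 7.74, a difference of -0.18, and was the dimmest coding member. NDUFS3, a core subunit on which the module is founded, was at 10.99 and 11.10, a difference of 0.10 that turns negative in the values as deposited. NDUFA9, a nucleotide-binding accessory subunit, differed by 0.31 (12.85 and 13.16). The 4 core subunits measured covered the span of the matrix arm, from NDUFV1 at -1.15 through NDUFS7 and NDUFS3 to NDUFV2 at 1.02.

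Membrane arm subunits lay mostly above 0. In the proximal part the median was 0.70 over 7 of 9 listed subunits. NDUFA13, also known as GRIM-19, was at 9.28 on the siControl array and 10.34 on the siYY1 array, a difference of 1.06 (2.08-fold). NDUFC1, a very small subunit, was at 9.01 and 10.03, a difference of 1.03. NDUFA11, at 13.02 and 13.84, differed by 0.82 and NDUFA1, at 10.32 and 11.03, by 0.70. NDUFA8, a disulfide-bonded protein of the intermembrane space side, differed by 0.37. NDUFS5, of the same protein family, was at -0.037. NDUFA10, with a fold like that of nucleoside kinases, was lowest, at 11.38 and 10.97, a difference of -0.41.

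The distal part was measured in full, with all 11 listed NDUFB subunits, none of them past 2-fold. Its median was 0.30 and 8 subunits were above 0. NDUFB10, at 11.97 on the siControl array and 12.65 in siYY1, was highest at 0.68. NDUFB3 and NDUFB4 differed by 0.56 and 0.51 and NDUFB2 by 0.40. NDUFB1, NDUFB9, NDUFB7 and NDUFB5 lay together between 0.27 and 0.31. The 3 below 0 were NDUFB6 at -0.079, NDUFB11 at -0.22 and NDUFB8 at -0.31 (12.70 and 12.39). Of the 15 membrane arm subunits with a window, only NDUFB8 held YY1 letters, and NDUFB5 and NDUFB9 had no window. NDUFAB1, the mitochondrial acyl carrier protein that sits in both arms, differed by 0.23.

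Set side by side, the 18 membrane arm subunits had a median of 0.34 with 13 above 0, and the 13 matrix arm subunits a median of 0.0023 with 7 above 0. Relative to the median of the bright genes the membrane arm stood at 0.34 and the matrix arm at 0.0076. In the values as deposited these were 0.33 and -0.056, with 13 of 18 membrane arm and 6 of 13 matrix arm subunits above the bright-gene median. The ranges of the arms overlapped, from -0.41 to 1.06 in the membrane arm against -1.15 to 1.02 in the matrix arm, and subunits are not replicates of a condition, so no test of the difference was made. Most subunits are encoded by compact genes: the median genomic span was 12.3 kb for subunits against 31.9 kb for bright genes. The shortest of 3 equal parts of the bright genes by span had a median difference of -0.031, and the 22 subunits in that part had a median of 0.29. The 7 subunits in the middle part had a median of 0.27 against -0.074 for its bright genes. Over the 3 subunits in the longest part, the median was -0.41 against 0.086.

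**Figure D3:**
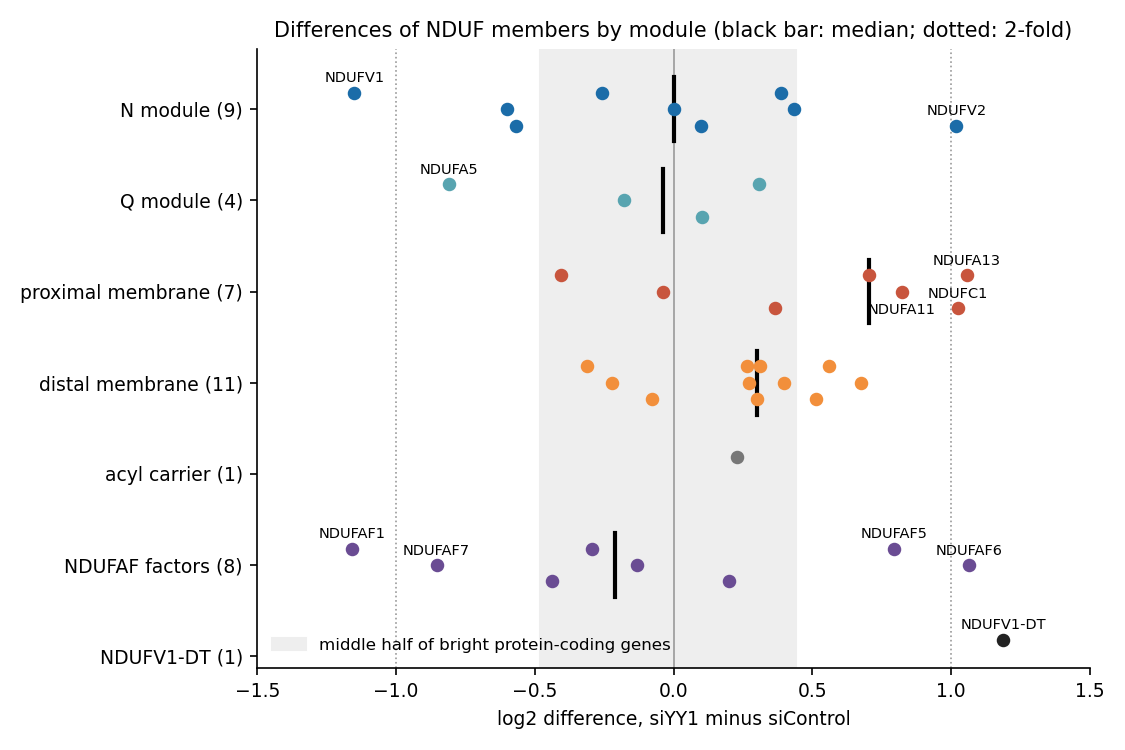
Log2 difference (siYY1 minus siControl) of each of the 41 NDUF members by module, with the number of members in brackets. Points are single probe sets on 1 array per group, black bars are medians, dotted lines mark 2-fold and the grey band is the interquartile range of the bright protein-coding genes, -0.48 to 0.44. The proximal and distal membrane arm have medians of 0.70 and 0.30, and the N and Q modules lie at 0.0023 and -0.039.

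The NDUFAF assembly factors lay on both sides of 0. Their median was -0.21, with 3 above 0 and 5 below. Of the 8 factors, 1 was past 2-fold higher and 1 lower, near the 7.64% and 8.63% of bright genes. NDUFAF1, a core member of the MCIA complex that builds the membrane arm, was the lowest of all coding members, at 10.43 on the siControl array and 9.27 on the siYY1 array, a difference of -1.16 (2.23-fold lower). NDUFAF6, which acts at an early step of assembly, was the highest, at 9.87 and 10.93, a difference of 1.06 (2.09-fold higher). NDUFAF7, a methyltransferase of early assembly, was at 11.07 and 10.22, a difference of -0.85. NDUFAF5, which hydroxylates an arginine of NDUFS7, was at 9.41 and 10.21, a difference of 0.79.

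The early pair NDUFAF3 and NDUFAF4, which bind each other and the Q module, differed by -0.44 (14.68 and 14.25) and -0.13 (11.82 and 11.69). NDUFAF2, a relative of NDUFA12 that acts late when the N module joins, was at 10.26 and 9.97, a difference of -0.29. NDUFAF8 was at 10.87 and 11.07, a difference of 0.20 that turns negative with median centring. The median of the subunits exceeded that of the factors by 0.48, and the factors, with an interquartile range from -0.54 to 0.35, overlapped the subunits, which ran from -0.19 to 0.46.

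Assembly factors without an NDUF name were also mixed. Of 12 measured, 4 were above 0 and 8 below, with a median of -0.14. At least 2-fold lower were 3, against 8.63% of bright genes and 5.67% of all named protein-coding genes. NUBPL, which delivers iron-sulfur clusters to complex I, was at 7.97 on the siControl array and 5.89 on the siYY1 array, a difference of -2.08. TMEM186 and FOXRED1 differed by -1.22 and -1.10. NUBPL was below the brightness minimum in siYY1 and in its mean over the arrays, and the other 2 on both arrays, so the sizes are uncertain. None of the 3 was therefore a bright gene, and the 8.63% is not a like background for them. No bright factor of this list was 2-fold lower. NDUFAF1 works in the MCIA complex with ACAD9 at -0.94, TMEM126B at -0.12, ECSIT at 0.95 and COA1 at 0.28. The dim TMEM186, at -1.22, is a further partner, so the partners of NDUFAF1 lay on both sides of 0. DMAC2 was at 0.33.

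NDUFV1-DT was listed among the members by name but codes for no protein. It was at 3.83 on the siControl array and 5.02 on the siYY1 array, a difference of 1.19, opposite in sign to NDUFV1. Both values were far below the brightness minimum of 7.21, so the size is uncertain. The starts of the 2 genes are 230 bases apart and point away from each other. The bases between them are shown because the probe sets on either side differed in opposite directions. They lie at chr11:67606707-67606935 on the + strand of GRCh38.p14, along NDUFV1, are 71.6% G or C, and hold none of the 6 motif forms searched:
NDUFV1-DT to NDUFV1: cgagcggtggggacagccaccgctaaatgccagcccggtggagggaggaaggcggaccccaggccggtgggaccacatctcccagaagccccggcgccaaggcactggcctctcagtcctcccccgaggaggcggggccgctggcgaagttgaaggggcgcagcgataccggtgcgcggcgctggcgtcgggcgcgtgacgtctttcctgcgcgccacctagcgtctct

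Other members had head-to-head neighbours too. Within 1000 bases before the start of 18 of the 36 coding members with a window, another gene started on the opposite strand, and 16 of these neighbours had a value. In 10 pairs the neighbour was bright as well. The pair lay on the same side of 0 in 8 of the 10, against 47.8% of 490 bright head-to-head pairs over all genes. Some of these values were near 0, such as NDUFS3 at 0.10 with KBTBD4 at 0.14. The sign of NDUFS3 changed in the deposited values. The pairs of members include NDUFA1 at 0.70 with RNF113A at 0.49, NDUFAF3 at -0.44 with DALRD3 at -0.42, and NDUFB11 at -0.22 with RBM10 at -0.23.

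The exceptions among the bright pairs were far apart. NDUFC1 was at 1.03 while NAA15, the scaffold of an N-terminal acetyltransferase whose start is 271 bases away, was at 14.04 on the siControl array and 12.99 on the siYY1 array, a difference of -1.04. NDUFAF5 was at 0.79 while ESF1, a nucleolar protein gene 109 bases away, was at 10.72 and 9.46, a difference of -1.26. Both pairs were more than 2 log2 units apart, as were 4.69% of the bright pairs over all genes. NDUFAF2, at -0.29, shared its side with ERCC8, a DNA repair gene at -1.17. These pairs rest on 1 probe set for the member and 1 array per group.

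**Figure D4:**
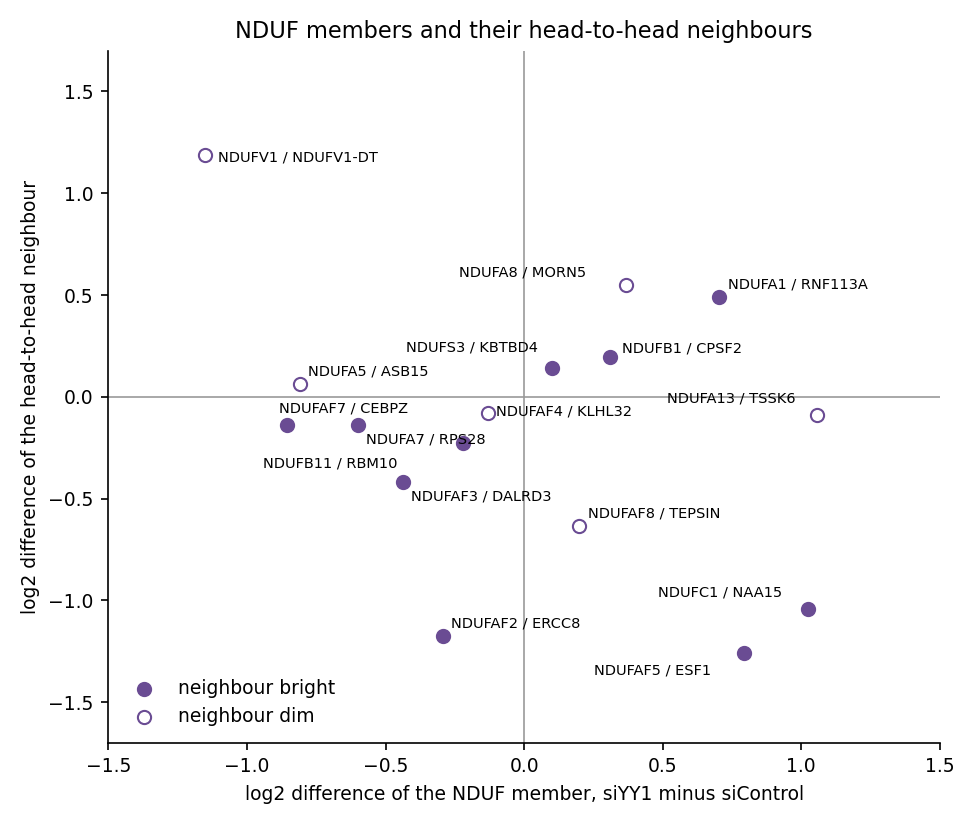
Log2 difference (siYY1 minus siControl) of the 16 NDUF members with a measured head-to-head neighbour, x axis, against that of the neighbour, y axis. Filled points have a bright neighbour and open points a dim one. NDUFC1 with NAA15 and NDUFAF5 with ESF1 sit in the lower right, and 8 of the 10 filled points have the same sign on both axes.

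The scaling of the arrays moved the medians, and less so their distance from the bright genes. In the deposited values the bright genes had a median of -0.12, against -0.0054 after quantile normalization. The 4 coding members past 2-fold higher then lay between 0.88 and 0.93 and no coding member was 2-fold higher (5.84% of bright genes were), while NDUFV1 at -1.31 and NDUFAF1 at -1.29 stayed past 2-fold (11.5% were lower). With median centring, NDUFA5 and NDUFAF7 joined them as 2-fold lower, and no coding member was 2-fold higher, against 13.4% and 4.78% of bright genes. Relative to the bright genes, the subunit median was 0.27 with quantile normalization, 0.27 with loess, 0.24 as deposited and 0.24 with median centring. For the NDUFAF factors it was -0.21, -0.19, -0.23 and -0.23. The signs of NDUFA6, NDUFA12 and NDUFS3 changed in the deposited values, and with median centring that of NDUFAF8 did too.

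**Figure D5:**
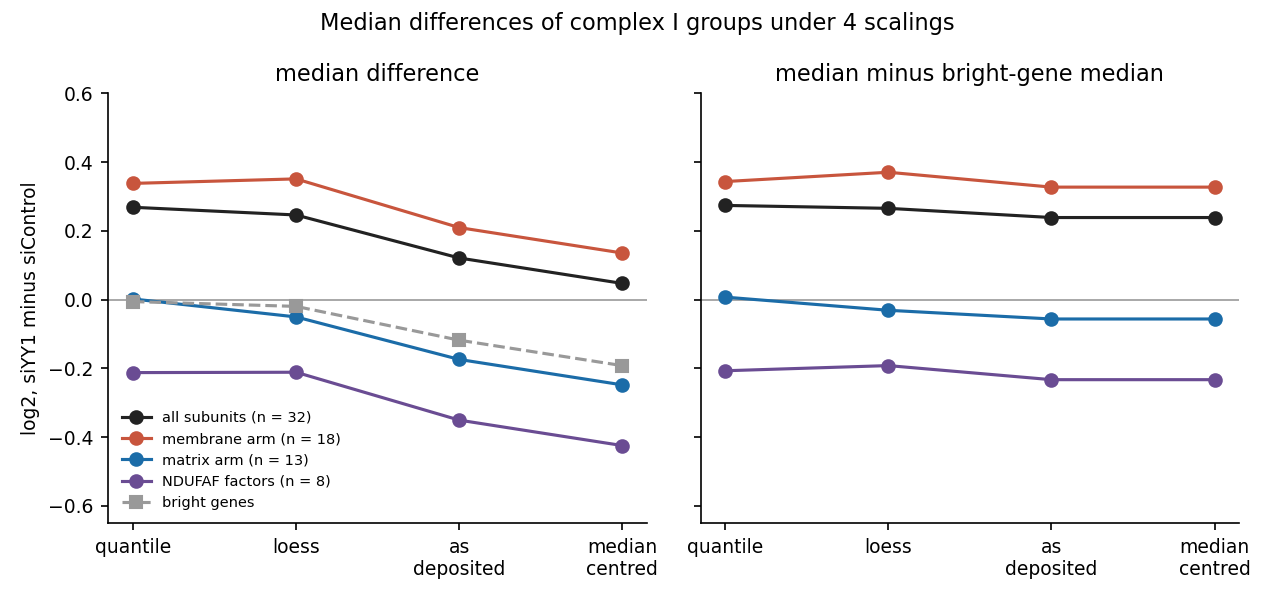
Median log2 difference (siYY1 minus siControl) of all subunits, both arms and the NDUFAF factors under 4 scalings of the arrays, as such (left) and after subtraction of the bright-gene median (right). Lines join the same group and have no error. On the right the subunits stay between 0.24 and 0.27 and the factors between -0.23 and -0.19.

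The other respiratory complexes gave a scale for these values. Over 36 measured subunits of complexes II to V the median was 0.15, with 22 above 0, 3 past 2-fold lower, against 8.63% of bright genes, and none higher, against 7.64%. Complex III and complex IV had medians of 0.33 and 0.25, close to the 0.27 of complex I subunits, with highest members UQCR10 and COX7A2 at 0.95 each. Complex V was at -0.027 and complex II at -0.24. The 3 past 2-fold were SDHC at -1.60, ATP5F1A at -1.59 and ATP5F1D at -1.17. No test of complex I against these complexes was made.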

How the data were processed

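Values came from 2 arrays, 1 per group. The values deposited by the authors were taken as log2 because they ran from 2.51 to 17.9. Per the labels' protocols, sense-strand cDNA was labelled with biotin for a whole-transcript array. The sources used here name no software, background correction or normalization. The 25th, 50th and 75th percentiles differed by 0.18, 0.07 and -0.13 between arrays, over the limit of 0.05, so the pair was quantile normalized over 21448 probe sets. Platform annotation named 1 gene for 17709 probe sets and none for 3739. Gene IDs matched RefSeq (GRCh38.p14) for 17683 of 17687 genes. Probe sets of a gene were averaged.

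Members followed the NDUF symbol, with values for all and full values for core subunits, NDUFAF factors, members past 2-fold and each module's extremes. For other lists the 2 highest, the 2 lowest and genes past 2-fold were to be named, and further genes were named after their values were seen. Members, lists and motifs were chosen with earlier results of these data known. With 1 array per group there was no test. Promoter sequences are from RefSeq. The computation was tested on simulated data. Alternatives were the deposited values, median centring, loess (fraction 0.3), means, the brightest probe set, a brightness filter and thresholds of 1.5-fold and 3-fold. Python 3.11.15, numpy 2.4.6, pandas 2.3.3, statsmodels 0.14.6 and matplotlib 3.10.9 were used.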

Additional observations from a re-analysis of the deposited data

How the results depend on the processing

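The medians depended on the scaling, and no replicate spread exists to judge the shifts. The subunit median of 0.27 was 0.12 in the deposited values, 0.047 with median centring and 0.16 as a mean. For the NDUFAF factors, -0.21 became -0.35, -0.42 and -0.10. The proximal membrane arm, at 0.70, was at 0.57, 0.49 and 0.50, and the distal arm, at 0.30, at 0.16 and 0.081 in the deposited and centred values. The Q module, at -0.039, was at -0.21 with centring and -0.14 as a mean. The N module median of 0.0023 changed sign, to -0.17 as deposited, -0.25 centred, -0.050 with loess and -0.070 as a mean, and relative to the bright genes to -0.056 (as deposited), -0.056 (centred) and -0.031 (loess). The excess of subunits over factors, 0.48, was 0.27 with means. Of 41 members, including NDUFV1-DT, 5 were at least 2-fold higher. There was 1 with either the deposited or the centred values, 9 at 1.5-fold and 0 at 3-fold. Those at least 2-fold lower, 2 in number, were 4 with centring, 5 at 1.5-fold and 0 at 3-fold. The median of the 6 mitochondrial proteases, 0.16, was -0.047 with centring. The cause of these shifts was not tested. The loess setting moved none of the 41 members by as much as 0.1, though NDUFA6 changed sign. Leaving out the 2 members farthest from 0, 1 at each end, and taking the brightest probe set, where each member has 1, could not move the subunit and factor medians. The brightness minimum left out no coding member. No paired analysis was possible because each group had 1 array. Comparisons with the bright-gene median and windows of single-window genes were added after the data were seen.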

Other observations

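Genes that serve complex I from outside were described through lists as well. Mitochondrial iron-sulfur cluster genes, which supply the clusters of the matrix arm, had 9 of 11 measured members below 0 and a median of -0.26. Of the bright genes, 49.8% were above 0, and of all 17245 named protein-coding genes 8556 were. ISCA2 and IBA57, both below 0, had means under the brightness minimum, so the list is not limited to bright genes. NFS1, the desulfurase that provides sulfur, was at 10.38 on the siControl array and 8.61 on the siYY1 array, a difference of -1.77 (3.41-fold lower). ISCU, the scaffold on which NFS1 builds clusters, was at 11.62 and 13.06, a difference of 1.45 (2.72-fold higher). ISCA2, at -1.18, was dim on both arrays. The next below was HSCB, a cochaperone of cluster transfer, at -0.76, and NFU1 was at 0.016. NFS1, ISCU and ISCA2 were past 2-fold, 1 of 11 higher and 2 of 11 lower, against 7.64% and 8.63% of bright genes and 4.62% and 5.67% of all named protein-coding genes.

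Regulators of nuclear respiratory genes lay on both sides, with 4 of 9 above 0 and a median of -0.12. PPRC1, a coactivator of the PGC-1 family, was at 9.95 and 11.13, a difference of 1.18, while PPARGC1A, at -0.63, and PPARGC1B, at -0.35, were dim on both arrays. TFB1M, which methylates the small mitochondrial ribosomal RNA, was at 10.40 and 8.91, a difference of -1.49. These 2, PPRC1 and TFB1M, were the ones past 2-fold, 2 of 9, against 16.3% of bright genes and 10.3% of all named protein-coding genes. GABPA was at 0.36, TFB2M at 0.36 and NRF1 at -0.12. Among 6 mitochondrial proteases, of which CLPP with its partner CLPX clears damaged matrix arm subunits, LONP1 was highest at 0.93, CLPP was at 0.61, CLPX at -0.18 and YME1L1 lowest at -0.52. Of 5 genes of import and maturation the median was -0.071, with CHCHD4, which oxidises subunits such as NDUFA8 and NDUFB10 on import, at 0.20, COX7A2L at 0.12, AIFM1 at -0.21 and HIGD1A at -0.57.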
